A study of Mus musculus with 31 samples.

Results

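Libraries of mouse thalamus that held much Fos transcript were compared with libraries that held little. Bulk RNA-seq had been made from 31 mice, 1 library each, and for every library the TPM (a level scaled by transcript length and by the library's total) of the 4 annotated Fos transcripts was summed. The 8 libraries with the highest sum and the 8 with the lowest formed the sides, 16 of 31 libraries, whatever the housing. The animals were adults at postnatal day 90 born to mothers with isolation rearing (SIR: 7 male and 8 female libraries) or to control mothers (8 male and 8 female libraries), and the labels name no strain, litter or further treatment. The high side held 5 SIR libraries (3 female, 2 male) and 3 control libraries (all female). The low side held 4 SIR libraries (3 female, 1 male) and 4 control libraries (1 female, 3 male). The libraries were chosen by their measured Fos level, so the Fos values are a description without a test. A difference in any other gene shows which transcripts varied with Fos and not why, and in bulk tissue fewer cells of a type and less RNA per cell cannot be told apart.

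Fos codes for a basic leucine zipper protein that pairs with Jun proteins to form the transcription factor AP-1. It is the classical immediate early gene: calcium, cAMP and growth factor signals switch it on within minutes through factors already present in the cell, such as CREB and SRF, and its transcript decays quickly. Other immediate early genes, among them the Egr, Nr4a and Klf transcription factors and the Dusp phosphatases that switch the signal off again, are induced by the same signals, and in the thalamus Fos is widely used to mark recently active neurons.

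The 250 bases before the transcription start given by RefSeq are shown for Fos and 5 genes that rose with it across the 31 libraries. The 5 were picked among genes whose windows hold the letters to which CREB is known to bind. That each shown window holds these letters is therefore no result. Capitals mark the cAMP response half-site TGACG on either strand (CGTCA when read on the strand printed). Sequences are from RefSeq and run 5′ to 3′ on the strand of the gene.
Fos, GRCm38.p6, chr12:85473640-85473889, plus strand: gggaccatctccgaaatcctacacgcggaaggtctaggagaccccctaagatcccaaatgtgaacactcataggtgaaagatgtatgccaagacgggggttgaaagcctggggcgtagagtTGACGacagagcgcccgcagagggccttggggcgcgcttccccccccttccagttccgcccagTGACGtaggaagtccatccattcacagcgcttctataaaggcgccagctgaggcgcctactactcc
Nr4a1, GRCm38.p6, chr15:101266596-101266845, plus strand: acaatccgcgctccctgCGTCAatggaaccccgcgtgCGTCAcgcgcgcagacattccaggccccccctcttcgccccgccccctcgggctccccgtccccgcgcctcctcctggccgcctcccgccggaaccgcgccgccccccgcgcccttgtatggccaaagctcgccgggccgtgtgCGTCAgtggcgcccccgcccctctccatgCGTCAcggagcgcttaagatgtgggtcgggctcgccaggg
Fosb, GRCm38.p6, chr7:19310046-19310295, minus strand: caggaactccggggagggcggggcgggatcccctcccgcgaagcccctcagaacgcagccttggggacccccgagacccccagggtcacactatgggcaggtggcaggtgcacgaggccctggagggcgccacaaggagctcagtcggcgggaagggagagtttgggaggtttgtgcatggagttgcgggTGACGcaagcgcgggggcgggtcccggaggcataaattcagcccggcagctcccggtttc
Klf2, GRCm38.p6, chr8:72318812-72319061, plus strand: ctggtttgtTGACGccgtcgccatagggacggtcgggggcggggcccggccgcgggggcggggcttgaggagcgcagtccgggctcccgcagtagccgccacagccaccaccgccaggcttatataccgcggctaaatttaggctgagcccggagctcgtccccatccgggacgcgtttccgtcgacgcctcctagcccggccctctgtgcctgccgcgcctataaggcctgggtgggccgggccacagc
Dusp1, GRCm38.p6, chr17:26508473-26508722, minus strand: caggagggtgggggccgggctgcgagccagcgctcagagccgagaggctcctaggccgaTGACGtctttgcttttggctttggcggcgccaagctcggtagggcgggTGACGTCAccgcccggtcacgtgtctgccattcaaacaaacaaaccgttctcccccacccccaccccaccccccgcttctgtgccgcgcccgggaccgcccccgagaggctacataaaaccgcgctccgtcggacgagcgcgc
Junb, GRCm38.p6, chr8:84978749-84978998, minus strand: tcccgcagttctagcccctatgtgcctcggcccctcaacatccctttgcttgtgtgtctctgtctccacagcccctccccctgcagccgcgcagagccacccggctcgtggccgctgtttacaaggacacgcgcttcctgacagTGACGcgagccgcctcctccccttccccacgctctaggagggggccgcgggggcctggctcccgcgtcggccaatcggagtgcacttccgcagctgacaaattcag
Fos held 2 half-sites, at 129 to 125 and at 66 to 62 bases before the start. Nr4a1 held 4 and Dusp1 held 3, of which a pair overlapped in the full element TGACGTCA. Fosb, Klf2 and Junb held 1 each. For Junb the bases after the given start were not found in a transcript of the reference, unlike for the other 5 genes, so the place of its start is uncertain. Of the 10 genes that rose with Fos across the 31 libraries, 9 had a promoter in the table, and Egr1 had none. At least 1 half-site stood in 7 of these 9, but the windows of Tob2 and Dusp7 held none. Of the 67 promoters of the immediate early genes listed here, 38 (56.7%) held at least 1. The half-site stood in 17.8% of all 32851 promoters of the same length and in 3562 of the 14250 promoters of tested genes. The full element stood in 1.55% of all promoters, 2.48% of those of tested genes and 8.96% of those of the immediate early genes. A serum response element (CArG box) stood in 1.47%, 1.13% and 10.4%, and the AP-1 site TGANTCA in 6.75%, 4.41% and 2.99%. Some genes had several promoters: the 67 of the immediate early genes belonged to 54 genes. Of these, the 38 with a half-site belonged to 31 genes and the 7 with a CArG box to 4 genes. A match is a description of the letters and was not tested for binding.

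Summed Fos ran from 42.9 to 65.2 TPM on the high side, with a median of 48.7, and from 12.5 to 26.1 TPM on the low side, with a median of 19.2. The mean was 52.1 ± 8.2 TPM (SD, n = 8) against 19.7 ± 4.0 TPM (SD, n = 8), a 2.64-fold difference, and the highest library held 5.20 times as much as the lowest. Control female 26 was highest and SIR male 4 lowest. The last library inside the high side was control female 24, at 42.9 TPM, and the first outside it was control male 23, at 42.1 TPM. On the low side the edge lay between control male 16, at 26.1 TPM, and control female 29, at 26.4 TPM. The ranking was thus a continuum with no gap at either edge.

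**Figure D1:**
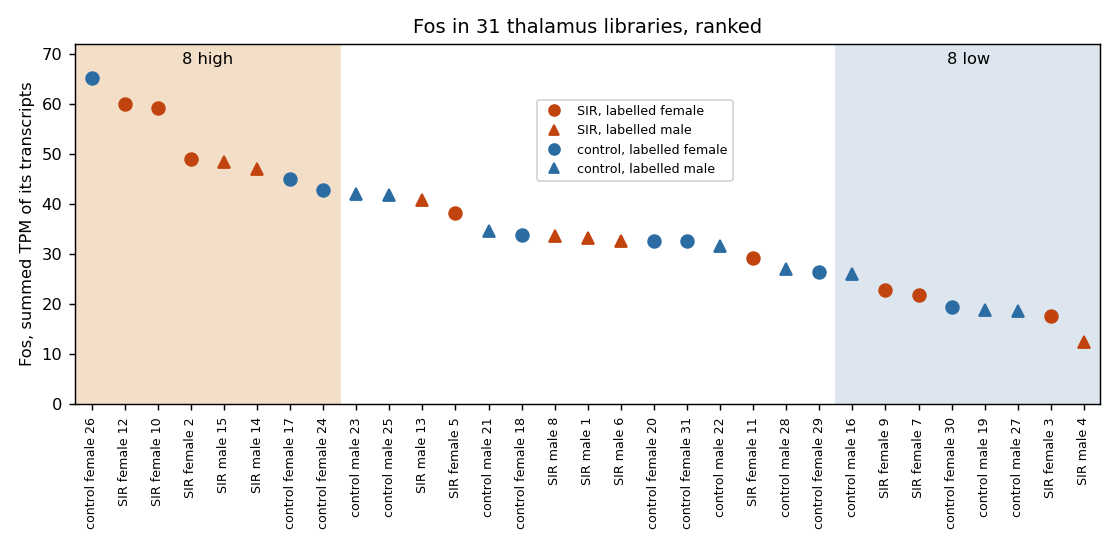
Summed TPM of the Fos transcripts (y axis) in each of the 31 libraries, ranked from high to low (x axis), with housing by colour and labelled sex by shape. Shading marks the 8 high libraries (42.9 to 65.2 TPM) and the 8 low ones (12.5 to 26.1 TPM), and both kinds of housing occur on both sides.

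The protein-coding transcript Fos-201 carried most of the sum, with a median share of 64.5% (49.9% to 80.1% over the 31 libraries). It lay between 23.5 and 40.4 TPM in the high libraries and between 10.03 and 18.9 TPM in the low ones. The sides thus also stood apart on that transcript, which is itself most of the sum that set them. The short transcript Fos-202, which is annotated as processed and not as coding, had a median share of 23.2%. The summed TPM and the CPM (counts scaled to the library's total) of Fos did not rank all libraries alike. On CPM the high side held 29.2 to 48.0 (median 38.3), the 15 libraries between held 20.9 to 32.1 (median 27.2) and the low side held 10.8 to 21.8 (median 16.6). Ranking by CPM would have kept 7 of the 8 libraries on each side.

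Sequencing depth overlapped between the sides, where totals ran from 20.6 to 25.5 M counts on the high side and from 20.9 to 25.2 M on the low side. Mitochondrial transcripts took 3.78% to 6.34% of the counts on the high side and 3.40% to 5.60% on the low side. Ddx3y, a Y-linked gene, lay between 34.2 and 50.2 CPM in the 6 libraries of the sides labelled male and at 0 CPM in the 10 labelled female. The library labelled SIR female 5, which lay between the sides, held 41.6 CPM of Ddx3y and so went against its label. Markers of thalamic relay neurons were abundant on both sides: Prkcd, a protein kinase C of relay cells, lay between 899 and 1937 CPM on the high side and between 915 and 1648 CPM on the low side.

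Over all 14436 genes tested beside Fos, edgeR's quasi-likelihood test called none different between the sides at an adjusted p of 0.05. At an unadjusted p under 0.05, 791 genes (5.48%) were higher and 626 (4.34%) lower on the high side. DESeq2 called 26 genes (16 higher, 10 lower), 11 of them immediate early genes. Limma-voom called 4, namely Klf2, Klf4 and Nr4a1, which were higher, and Fam19a2, which was lower. Under edgeR the smallest adjusted p values were 0.0645 for Klf2 and 0.0853 for Nr4a1, and these were the 2 genes under 0.1. Calls also appeared when single libraries were left out: 8 without control female 30, 3 without control female 17, and 1 (Klf2) without control male 19 or without control female 26. Since nothing passed, the genes described in this comparison were chosen after their values were seen. Of the gene lists every member was counted, but lists and members were chosen with earlier results of these data known.

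Of 70 immediate early genes listed, 68 had enough counts to be tested. Of these, 59 had a positive log2 difference (high side minus low side), against 49.9% of all genes, and 35 (51.5%) were higher at an unadjusted p under 0.05, against 5.48% of all genes. None was lower at that level and none passed after adjustment. Their median log2 difference was 0.28, that of all genes 0.00. The 26 transcription factors had a median of 0.40 with 15 at an unadjusted p under 0.05, and the 42 effector and feedback genes a median of 0.24 with 20.

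Klf2, a zinc finger transcription factor known from endothelium and lymphocytes, lay at 12.7, 17.3 and 23.4 CPM (lowest, median and highest library) on the high side and at 4.69, 8.72 and 11.1 CPM on the low side. All 8 high libraries lay above all 8 low ones. The log2 difference was 1.08 ± 0.16 (SE; adjusted p = 0.0645, edgeR).

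Nr4a1, an orphan nuclear receptor induced by many stimuli, lay at 19.6, 26.1 and 34.2 CPM against 8.74, 13.6 and 17.9 CPM. These ranges did not overlap either. The log2 difference was 0.89 ± 0.15 (adjusted p = 0.0853, edgeR). Its relative Nr4a3 had a log2 difference of 0.83 ± 0.20 with overlapping ranges (8.604 to 22.4 against 4.56 to 9.87 CPM), while Nr4a2 had one of 0.20 ± 0.33. Only 6 of the 14436 genes (0.0416%) had all high libraries above all low ones, and Klf2 and Nr4a1 were the immediate early genes among them.

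Fosb, a close relative of Fos whose protein also pairs with Jun proteins, had the largest log2 difference of the list, 1.22 ± 0.30 (adjusted p = 0.323, edgeR). It lay at 3.29, 6.06 and 17.7 CPM on the high side and at 2.38, 2.91 and 3.95 CPM on the low side. Control female 26 alone reached 17.7 CPM, the next library held 9.92 CPM, and the 2 ranges overlapped. Without control female 26 the log2 difference was 0.89.

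The Jun proteins, with which Fos pairs, had differing values. Junb lay at 9.18, 14.3 and 21.9 CPM against 6.15, 9.21 and 11.3 CPM, a log2 difference of 0.66 ± 0.16 (adjusted p = 0.323, edgeR). Jun lay at 64.6, 77.9 and 114 CPM against 73.1, 83.2 and 96.7 CPM, with a difference of 0.03 ± 0.11. Jund lay at 122, 136 and 156 CPM against 107, 150 and 169 CPM, with a difference of -0.10 ± 0.08. Both Jun and Jund thus overlapped fully, and whether their differences differ from that of Junb was not tested. Fosl2, another Fos relative, had a log2 difference of 0.67 ± 0.22, and Fosl1 held at most 0.13 CPM and was not tested.

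**Figure D2:**
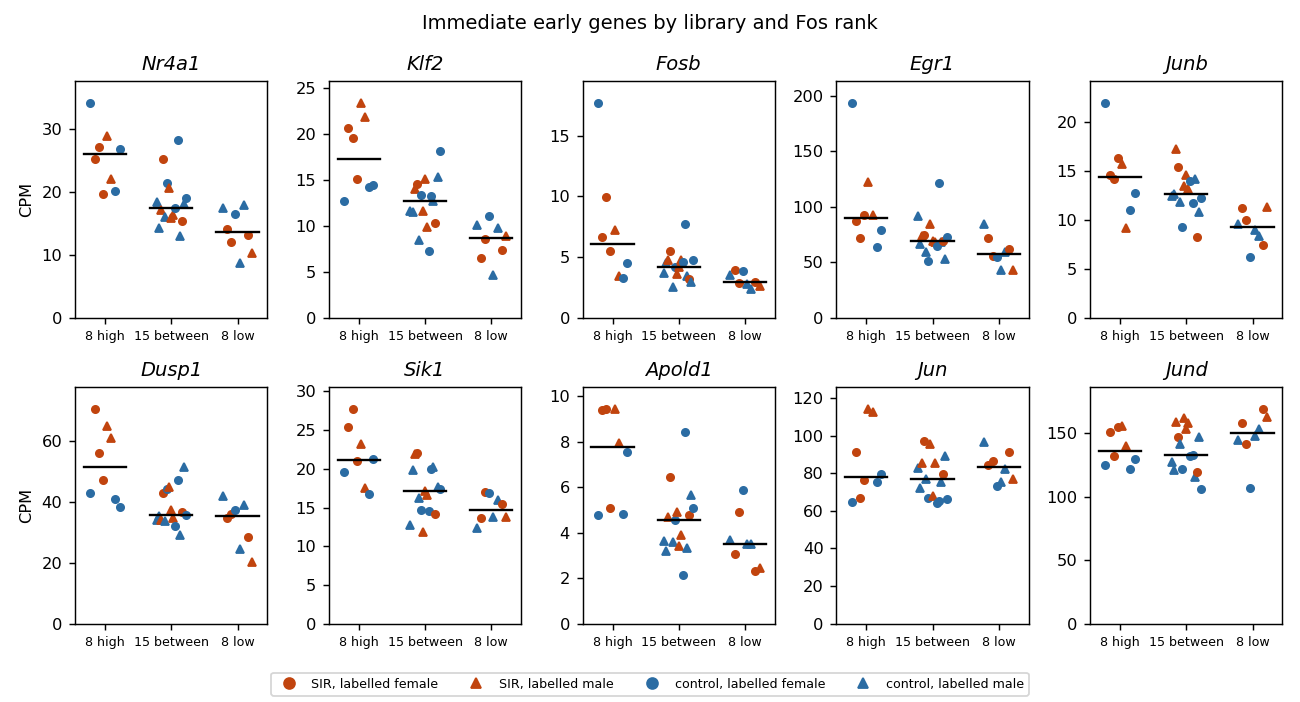
CPM (y axis, from 0) of 10 immediate early genes in each library, by Fos side (x axis), with a line at the median of each side, housing by colour and labelled sex by shape. Klf2 and Nr4a1 do not overlap between the 8 high and the 8 low libraries, Fosb and Egr1 have 1 high library far above the others, and Jun and Jund overlap fully.

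The Egr zinc finger factors respond to the same signals through SRF. Egr1 lay at 63.8, 89.6 and 194 CPM on the high side and at 43.2, 57.4 and 84.4 CPM on the low side, a log2 difference of 0.76 ± 0.21 (adjusted p = 0.376, edgeR). The highest library was again control female 26, the next held 122 CPM, and without it the difference was 0.55. Egr4, a weakly expressed member, had a log2 difference of 0.97 ± 0.23, and Egr3 one of 0.20 ± 0.36. Npas4, a factor induced by calcium entry in neurons, lay at 2.10, 5.48 and 14.1 CPM against 1.496, 3.01 and 6.07 CPM and had a difference of 0.86 ± 0.35. Its ranges overlapped, and control female 26 held the 14.1 CPM. Klf4 had a difference of 0.68 ± 0.13 and the nuclear protein gene Csrnp1 one of 0.47 ± 0.12, while Srf itself had one of 0.08 ± 0.06. Myc (-0.39 ± 0.19) and Klf6 (-0.11 ± 0.08) pointed the other way without passing any threshold.

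Among the effector and feedback genes, Apold1, which codes for a lipid-binding protein of activated endothelium, lay at 4.79, 7.74 and 9.45 CPM on the high side and at 2.30, 3.51 and 5.86 CPM on the low side. The ranges overlapped, and the log2 difference was 0.99 ± 0.20 (adjusted p = 0.242, edgeR). Sik1, a salt-inducible kinase that damps CREB coactivators, lay at 16.8, 21.1 and 27.8 CPM against 12.4, 14.6 and 16.97 CPM, a difference of 0.53 ± 0.10 (adjusted p = 0.125, edgeR). The sides overlapped only narrowly: 2 low libraries lay just above the lowest high one. Dusp1, a phosphatase that switches off MAP kinases, lay at 38.2, 51.5 and 70.5 CPM against 20.1, 35.2 and 42.0 CPM, a difference of 0.69 ± 0.16 (adjusted p = 0.323, edgeR). Its highest values belonged to SIR libraries of both sexes.

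Among the other listed phosphatases, Dusp4 (0.54 ± 0.19), Dusp5 (0.47 ± 0.14) and Dusp6 (0.25 ± 0.10) were higher at an unadjusted p under 0.05, whereas Dusp14 (0.01 ± 0.10) and Dusp2 (-0.36 ± 0.29) did not reach it. The growth arrest genes Gadd45b (0.38 ± 0.09) and Gadd45g (0.36 ± 0.11) and the antiproliferative gene Btg2 (0.46 ± 0.14) were higher at an unadjusted p under 0.05, whereas Gadd45a (0.09 ± 0.10) was not. Arc, a cytoskeletal protein of active synapses, lay at 25.5, 44.7 and 60.1 CPM against 24.9, 31.6 and 50.2 CPM and had a difference of 0.33 ± 0.20. Its ranges overlapped almost wholly. Dusp7 and Ddit4, which are in neither list of immediate early genes, had differences of 0.28 ± 0.06 and 0.55 ± 0.12.

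**Figure D3:**
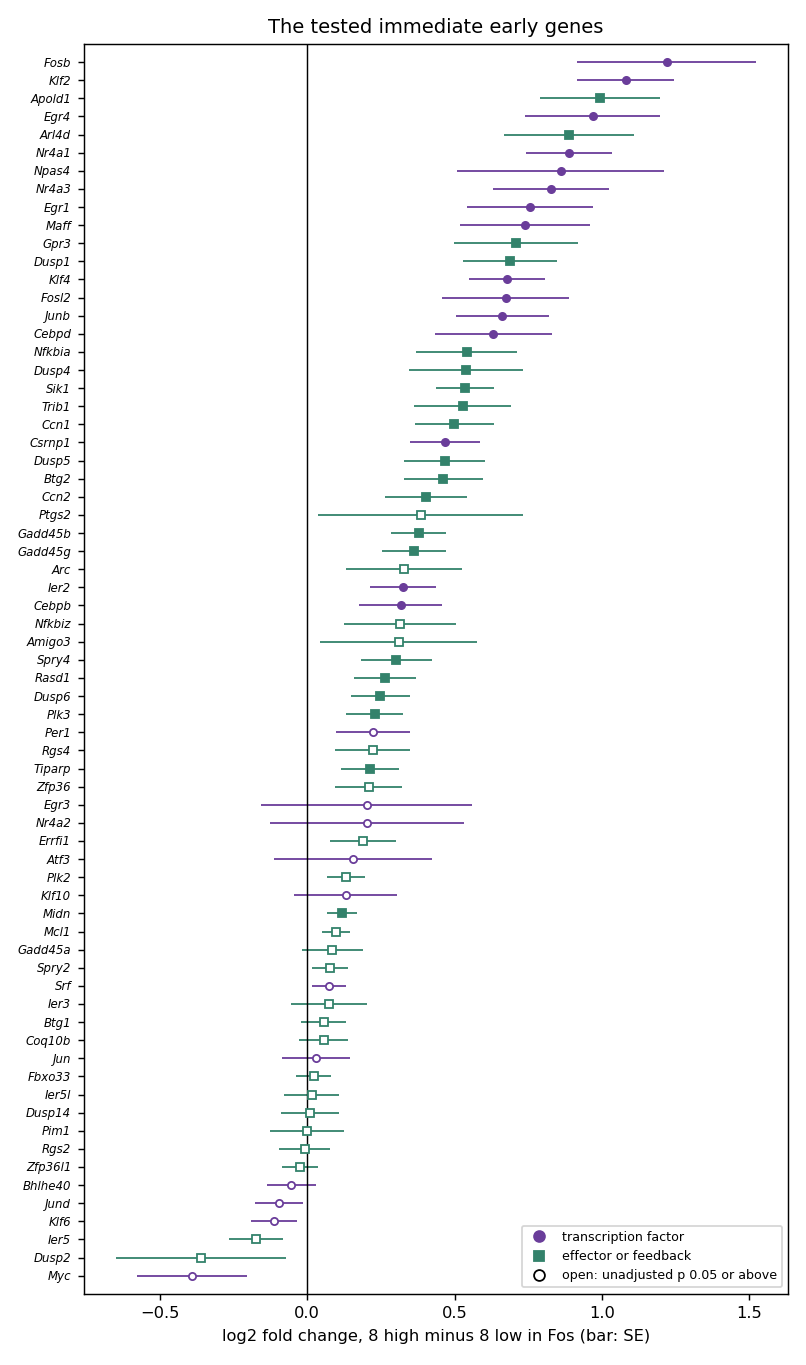
Log2 fold change between the 8 high and the 8 low libraries (x axis, bars are SE) of the 68 tested immediate early genes, ordered by size (y axis). Filled symbols have an unadjusted p under 0.05, which 35 genes reached, all on the positive side, and none passed after adjustment over 14436 genes.

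Genes that activity induces later had values close to those of all genes. Of 25 such genes, 16 had a positive difference, and their median was 0.02. Cdkn1a, a cell cycle inhibitor (0.78 ± 0.34), was the 1 that was higher at an unadjusted p under 0.05 (all genes 5.48%). Bdnf, a neurotrophin, lay at 8.39, 9.51 and 17.8 CPM against 7.19, 10.1 and 12.7 CPM, a log2 difference of 0.18 ± 0.17. Its median was lower and its mean higher on the high side, and the ranges overlapped. Homer1 and Nptx2, which act at synapses, had differences of 0.05 ± 0.09 and -0.002 ± 0.09. The 32 receptors, kinases and factors upstream of Fos had a median of -0.02, with 3 lower and none higher at an unadjusted p under 0.05. At that level 4.34% of all genes were lower and 5.48% higher. Prkacb, a catalytic subunit of protein kinase A, had a difference of -0.21 ± 0.08 and the SRF coactivator Mrtfb one of -0.10 ± 0.05. Creb1, at 0.01 ± 0.09, and Mapk3, at -0.01 ± 0.05, had differences within their errors.

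Genes of other acute responses were counted beside them. Of 20 tested glucocorticoid-induced genes, 18 had a positive difference and 9 were higher at an unadjusted p under 0.05, with a median of 0.27. Of all genes, 49.9% had a positive difference, and 5.48% were higher and 4.34% lower at that level. Sgk1, a kinase, lay at 51.2, 94.9 and 248 CPM against 43.7, 52.7 and 126 CPM (0.72 ± 0.33), and Tsc22d3, the leucine zipper protein GILZ, had a difference of 0.36 ± 0.13. Fkbp5, a chaperone of the glucocorticoid receptor, had one of 0.04 ± 0.09. Of 20 heat shock genes, 19 had a positive difference and 7 were higher at that level, with a median of 0.11, and the inducible Hspa1a and Hspa1b had differences of 0.42 ± 0.13 and 0.54 ± 0.20. The cold-inducible RNA-binding proteins pointed the other way: Rbm3 lay at 20.8, 29.7 and 35.8 CPM against 26.3, 39.1 and 53.3 CPM (-0.46 ± 0.14), and Cirbp had a difference of -0.38 ± 0.16. Of 21 clock genes, 1 (4.76%, Nfil3) was higher at an unadjusted p under 0.05, near the share of all genes, with a median of 0.03. None of these genes passed after adjustment.

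Marker lists of cell types and neighbouring regions were also counted between the sides. Oligodendrocyte markers had a median of 0.17, and 9 of 14 were higher at an unadjusted p under 0.05. Of all genes, 5.48% were higher and 4.34% lower at that level, which is the background for every list here. Mbp, a myelin protein, lay at 3599, 4810 and 5562 CPM on the high side against 3668, 4156 and 4940 CPM, and the summed level of the list was 8502 to 13036 TPM against 8358 to 11352 TPM. Endothelial markers had a median of 0.11 with 5 of 15 at that level, and their summed level was 536 to 671 TPM against 501 to 554 TPM. Astrocyte markers had a median of 0.06 (3 of 13 higher and 1 lower), microglial markers one of 0.03 (3 of 12 higher). Oligodendrocyte precursor markers had one of 0.04 (2 of 10 higher and 1 lower). The part of these cell types in the differences of the immediate early genes was not tested. Relay neuron markers had a median of 0.02, and hypothalamic markers one of -0.44 with 13 of 14 below 0, and 1 of them (Pomc) lower at an unadjusted p under 0.05. Midline thalamic markers had a median of -0.19 and inhibitory neuron markers one of -0.10, with none of 11 and none of 13 past that level. Habenular markers had one of 0.24 with 1 of 11, and midbrain and monoamine markers one of -0.14 with none of 6 past that level. Cortical and hippocampal (-0.05), striatal and septal (-0.07), choroid plexus (-0.08), mural and meningeal (0.08) and blood cell markers (0.04) had no member past it. The summed hypothalamic level overlapped widely, from 65.8 to 1834 TPM against 218 to 1808 TPM.

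Outside the lists, 4 further genes had all high libraries above all low ones: Atf4, the stress-response transcription factor (0.18 ± 0.04), Bcl2l2, a survival protein (0.15 ± 0.04), Ccdc12 (0.22 ± 0.05) and Sla (0.38 ± 0.11). In the opposite direction 6 genes (0.0416%) were separated, and 1 of them was a member of the list of genes upstream of Fos. Outside the lists these were Cdh18, a cadherin (-0.26 ± 0.06), Scaper (-0.20 ± 0.04), Eid1 (-0.18 ± 0.04), Tomm20, a mitochondrial import receptor (-0.14 ± 0.04), and Usp47, a deubiquitinase (-0.13 ± 0.04). The smallest p values among genes lower on the high side belonged to Fam19a2 (-0.32 ± 0.07), March7 (-0.33 ± 0.07) and Scaper, each with an adjusted p of 0.242 (edgeR). These differences were smaller than those of Klf2, Nr4a1 and Fosb in size, and none of these genes passed after adjustment.

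The make-up of the sides by sex and housing was not even, so the differences were also read within groups. The median of the immediate early genes was 0.32 among SIR libraries (5 high against 4 low), 0.19 among control libraries (3 against 4), 0.21 among females (6 against 4) and 0.40 among males (2 against 4). With housing and labelled sex as terms it was 0.26. Nr4a1 differed by 0.99 in SIR (adjusted p = 0.0297, edgeR) and by 0.83 in control libraries (adjusted p = 0.774, edgeR). Klf2 differed by 1.36 in SIR (adjusted p = 0.00596, edgeR) and by 0.63 in control libraries (adjusted p = 0.774, edgeR). Dusp1 differed by 1.01 and 0.19, Junb by 0.49 and 0.89, and Fosb by 1.07 and 1.44, all uncalled. The direction was the same in both kinds of housing for these 5 genes. These groups were not balanced either: in controls the 3 high libraries were female and 3 of the 4 low ones male, and in males the 2 high libraries were SIR and 3 of the 4 low ones control. There Fos side and sex, or Fos side and housing, cannot be fully told apart. Across all 31 libraries, edgeR called 0 of 15347 genes for a Fos slope that differed between SIR and control (708 at an unadjusted p under 0.05, 2.4% of all genes higher and 2.21% lower, and 0 called by limma-voom and by DESeq2). Without the libraries under 16 M counts it called 1, the gene model Gm14440.

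The 15 libraries between the sides were not used to set them, and there each gene was fitted against log2 Fos CPM. Their Fos range was narrow, at 0.62 log2 units (20.9 to 32.1 CPM). EdgeR called 0 of 14851 genes, with 302 (2.03%) positive and 391 (2.63%) negative at an unadjusted p under 0.05, while limma-voom called 0 and DESeq2 called 6, all negative. Of 69 immediate early genes, 38 had a positive slope (all genes 49.0%), 6 were positive and 2 negative at an unadjusted p under 0.05, and the median slope was 0.05 per log2 unit of Fos. The genes with the largest differences between the sides had slopes of both signs here. Nr4a1 had a slope of 0.87 ± 0.32, Fosb of 1.102 ± 0.43, Egr1 of 0.84 ± 0.34 and Btg2 of 1.13 ± 0.32, but Klf2 had one of 0.33 ± 0.43 (-0.06 without control female 20), Klf4 of -0.05 ± 0.41 and Nr4a3 of -1.22 ± 0.48. Against log2 of the summed Fos TPM the slopes were 0.056 for Nr4a1, 0.347 for Fosb and 0.34 for Egr1. Without control female 31, a library of few counts, they were 0.638, 0.752 and 0.49. Of the 35 immediate early genes higher on the high side at an unadjusted p under 0.05, 24 (68.6%) had a positive slope here, beside 489 of the 790 genes (61.9%) that met the same level in the whole table.

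Among these 15 libraries the smallest p values belonged to choroid plexus genes with negative slopes, such as Cldn2, a claudin (-11.55), and Ttr, which codes for transthyretin (-14.92). Control female 20 held 1564 CPM of Ttr and the lowest Fos CPM of the 15, at 20.9, and SIR female 11 held 225 CPM of Ttr and 22.4 CPM of Fos. EdgeR called 5 genes without control male 22. Without control female 20 it again called 0 genes, with a smallest adjusted p of 0.995. The part of choroid plexus tissue in these slopes was not tested. On the sides Ttr lay between 1.11 and 105 CPM (high) and between 0.04 and 76.1 CPM (low). Oligodendrocyte and endothelial markers had positive slopes in 12 of 14 and 12 of 15 genes, with medians of 0.22 and 0.38 and 3 genes each at an unadjusted p under 0.05. Of all genes, 49% had a positive slope, and 2.03% had one at that level. Glucocorticoid-induced and heat shock genes had negative medians here, -0.18 and -0.15, unlike between the sides. The genes whose CPM followed Fos most closely over the 15 libraries, by Spearman's rho and as a description, were Dact3 (rho 0.81), AI854703 (0.80), Pmp22 (0.78), Alkbh3, Lage3, Scd1, Mrps15, Tceanc, Cxcl12 and Slc6a6 (0.75 to 0.77). None is an immediate early gene, and between the sides their log2 differences ran from -0.46 (Tceanc) to 0.10 (Pmp22).

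A slope over all 31 libraries, with housing and labelled sex as terms, uses the whole Fos range of 2.14 log2 units, the 16 libraries of the sides included. EdgeR then called 10 of 15169 genes (0.0659%), all rising with Fos, and 8 of them were among the 69 immediate early genes tested. Nr4a1 rose by 0.72 ± 0.08 per log2 unit of Fos (adjusted p = 2.78e-06, edgeR), Fosb by 0.94 ± 0.13 (adjusted p = 0.000345, edgeR) and Dusp1 by 0.58 ± 0.09 (adjusted p = 0.00174, edgeR). Egr1 rose by 0.67 ± 0.11, Klf2 by 0.75 ± 0.13 and Tob2, an antiproliferative gene outside the lists, by 0.26 ± 0.04, each with an adjusted p of 0.0046 (edgeR). Dusp7 (0.21 ± 0.04), Junb (0.50 ± 0.10), Klf4 (0.50 ± 0.10) and Apold1 (0.74 ± 0.15) passed less clearly, with adjusted p between 0.0332 and 0.0413 (edgeR). The median slope of the 69 genes was 0.20, with 59 positive, and that of all genes 0.00.

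The calls did not rest on 1 library for the leading genes. Nr4a1, Fosb and Tob2 passed in all 39 alternatives tried, and Dusp1, Egr1 and Klf2 in 38 of 39. Dusp7 passed in 28, and Junb, Klf4 and Apold1 in 15 each. The total fell to 6 genes without SIR female 7, SIR female 9, SIR female 11, SIR male 15, control male 19 or control male 27, and to 4 (Nr4a1, Fosb, Junb and Tob2) when log2 of the summed TPM replaced the CPM of Fos. Without the library labelled SIR female 5 it was 8, and DESeq2 called 24 genes, all 10 among them.

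**Figure D4:**
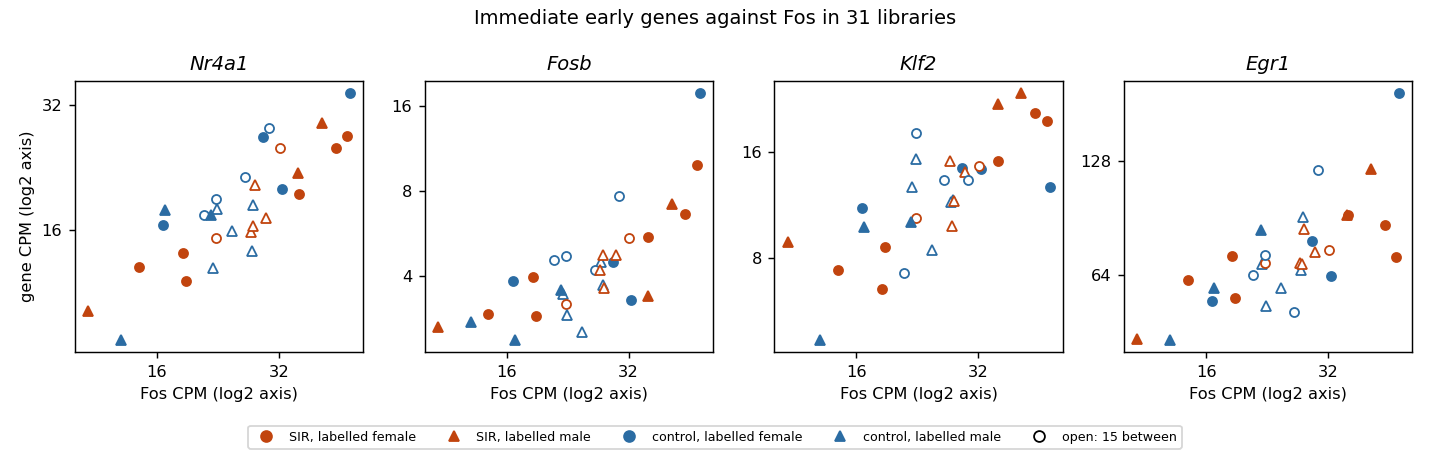
CPM of Nr4a1, Fosb, Klf2 and Egr1 (y axes, log2 scale) against Fos CPM (x axes, log2 scale) in the 31 libraries, with filled symbols for the sides and open ones for the 15 between. All 4 genes rose with Fos over the 31 libraries, by 0.72, 0.94, 0.75 and 0.67 per log2 unit of Fos, and the open symbols span a narrow Fos range.

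Fos itself was not called different between the kinds of housing. Its CPM had a lowest, median and highest value of 10.8, 27.9 and 40.9 in SIR males, 13.04, 22.2 and 27.7 in control males, 14.4, 27.3 and 47.2 in SIR females and 16.5, 27.8 and 48.0 in control females. The 4 groups overlapped. SIR minus control was 0.21 ± 0.18 on the log2 scale over both sexes (adjusted p = 0.527, edgeR), 0.38 ± 0.26 in males (adjusted p = 0.479, edgeR) and 0.05 ± 0.25 in females (adjusted p = 0.943, edgeR), and the effect in males minus that in females was 0.33 ± 0.36 (adjusted p = 0.741, edgeR). Without the library labelled SIR female 5 the value over both sexes was 0.20, and with limma-voom it was 0.07 (adjusted p = 0.836).

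Of 68 immediate early genes tested by housing, 2 were called higher in SIR over both sexes, against 1.76% of all 14886 genes, and none lower, against 2.79%. Without the library labelled SIR female 5 the calls over all genes went from 262 higher and 416 lower to 108 and 200 of 14864. The 2 immediate early genes called higher with all libraries were Jun (0.22 ± 0.06, adjusted p = 0.0393, edgeR) and Jund (0.22 ± 0.05, adjusted p = 0.0124, edgeR). Between the Fos sides the same genes had differences of 0.03 and -0.10. Jun lost its call without the library labelled SIR female 5 (adjusted p = 0.0681, edgeR). The median of the list was 0.02. Within females Jund, Bhlhe40, Dusp14 and Ier5l were called higher in SIR (2.38% of all genes) and none lower (2.24%), of which Ier5l lost its call without the same library (adjusted p = 0.0501, edgeR). Within males Klf6 was called lower in SIR (-0.30 ± 0.07, adjusted p = 0.0314, edgeR), against 1.05% of all genes, and none higher, against 0.282%. The effect in males minus that in females was called for Klf6 alone (-0.44 ± 0.10, adjusted p = 0.00985, edgeR), against 1.75% of all genes with a lower and 1.08% with a higher value. None of the 8 immediate early genes that rose with Fos across the 31 libraries was among these. With 0.282% to 2.79% of all genes called per direction, a count of none among 8 says little about these genes. Between the labelled sexes, Arc, Dusp4, Egr3, Plk2 and Ptgs2 were called lower in males than in females, by between 0.16 (Plk2) and 0.84 (Egr3) on the log2 scale (5.65% of all genes, with 4.44% called higher, no member among them), and Fos was not (-0.20 ± 0.18, adjusted p = 0.511, edgeR). Without the library labelled SIR female 5, Ptgs2 lost this call (adjusted p = 0.0623, edgeR) and Dusp14 was called higher in SIR over both sexes (0.23, adjusted p = 0.0457, edgeR). Without it the male effect minus the female effect was also called for Dusp14 (-0.44, adjusted p = 0.0474, edgeR) and Gadd45a (0.46, adjusted p = 0.0428, edgeR).

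**Figure D5:**
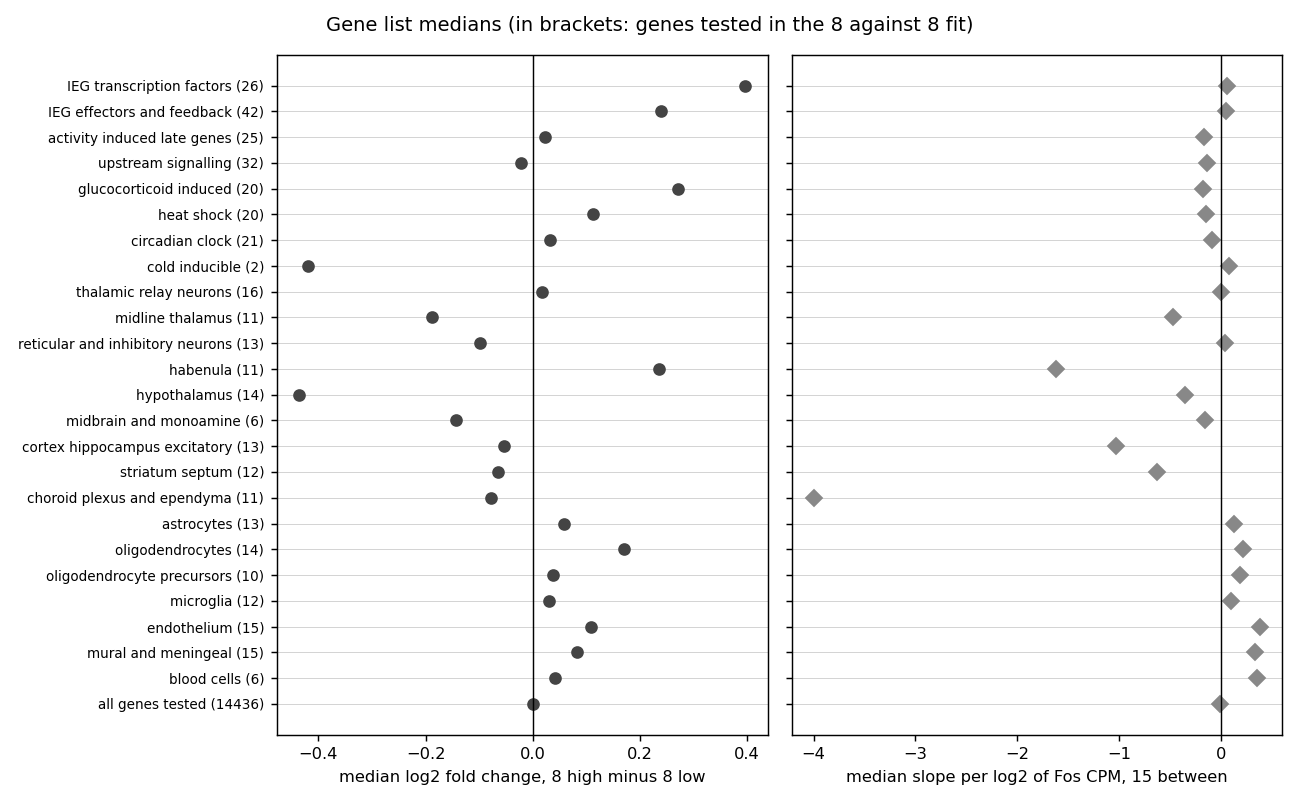
Median log2 fold change between the 8 high and the 8 low libraries (left) and median slope per log2 unit of Fos CPM in the 15 libraries between (right) for each gene list (y axis, number of genes tested in brackets). Between the sides the immediate early genes have medians of 0.40 and 0.24, in the other 15 libraries both are near 0.05, and the choroid plexus list has the lowest slope there.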

How the data were processed

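PolyA RNA of thalamus from 31 mice was sequenced as stranded libraries, 1 per animal. The authors inspected reads with FastQC and quantified transcripts with kallisto, with the build GRCm39, per the submitters' processing notes. Versions, index and strand setting are not given in the sources used here. Overlapping and antisense genes are therefore uncertain. The deposited files hold, per transcript, the estimated count, the TPM and the effective length.

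The estimated counts of each gene's transcripts were added up, then rounded to whole numbers. GENCODE M21 names matched 104949 of 105878 transcripts (99.12%), giving 25497 genes, and unmatched transcripts took 0.69% to 0.76% of the counts. Totals were 13.0 to 25.74 M counts per library (median 23.28 M). CPM used TMM-scaled totals. Fos was left out of the tested genes. Tests were edgeR 4.0.16 quasi-likelihood tests (robust, TMM, filterByExpr) in R 4.3.3, with Benjamini-Hochberg adjustment over all genes and a threshold of 0.05. Slopes used log2 Fos CPM with a prior count of 2. The SE of a log2 difference or slope was derived from the test, as the absolute estimate divided by the square root of its F statistic. DESeq2 1.42.0, limma 3.58.1, other scalings, filters, side sizes, Fos measures, covariates and left-out libraries were alternatives, and the scripts were tested on simulated data. The slope over all 31 libraries was examined with its own alternatives after seeing the data.

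The rule for named genes took those called between the sides, every immediate early gene as a count, and the 10 highest correlations with Fos in the other 15 libraries. As none was called, other names were chosen after their values were seen. Members and lists were chosen with earlier results of these data known. P-values measure only the spread between these animals, whose litters and batches the labels do not give. The library numbers ran from 320 to 432 in SIR and from 554 to 746 in control libraries. A difference that goes with these numbers therefore cannot be told apart from housing.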

Additional observations from a re-analysis of the deposited data

Results flagged for a closer look

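In 40 checks of single genes within the 8 high or the 8 low libraries, 5 had 1 library far from the rest. Chance alone does so in about 1 in 20 unselected groups. These checks shared the same libraries, which were picked by their Fos level, so that rate is no yardstick for the 5. Control female 26, on the high side, held 17.7 CPM of Fosb (next library 9.92 CPM), 194 CPM of Egr1 (next 122 CPM) and 14.1 CPM of Npas4 (next 7.09 CPM). Control female 30, on the low side, held 107 CPM of Jund, below the next library at 141 CPM, and 12.2 CPM of Arl4d, above the next at 8.25 CPM. Klf6, a zinc finger factor, had a housing effect (SIR minus control) that differed between males and females by -0.44 on the log2 scale, in edgeR's interaction test (adjusted p = 0.00985).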

How the results depend on the processing

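Against no gene called between the sides by edgeR, DESeq2 called 26, limma-voom 4, limma-trend on log2(TPM + 1) 1, ranking by Fos CPM 1, all 31 libraries as 3 groups 2, the slope over 31 libraries 10, SIR libraries alone 2, males alone 1 (Mt2), no robust estimation 2, and a threshold of 0.1 gave 2. Leaving out 1 library gave 0 to 8. The median of the immediate early genes (0.28) was 0.15 with 12 libraries per side, 0.40 in males alone, and 0.25 to 0.31 (0.253 to 0.305) leaving out 1 library. In the 15 libraries, edgeR called 1 gene (Kcne2) with housing and sex as terms and 1 without the libraries under 16 M counts, DESeq2 called 6, and leaving out 1 library gave 0 to 5. Over 31 libraries the 10 calls became 24 with DESeq2, 4 with log2 TPM, and 6 to 13 leaving out 1 library. The slope by housing gave 1 call without libraries under 16 M counts. The housing difference of Fos (0.21) was 0.203 without SIR female 5, 0.255 without the libraries under 16 M counts and 0.072 with limma-voom. No other library was left out for it.

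Leaving out 1 library at a time, slopes in the 15 libraries ran from -0.059 to 0.696 for Klf2, from -0.028 to 0.125 for Dusp7 and from -0.21 to 0.218 for Klf4. Slopes that changed sign were Klf4 (-0.05), at 0.23 with housing and sex as terms and at 0.218, 0.077, 0.075 and 0.002 without SIR female 5, control male 28, control female 29 and control female 31; Dusp1, Klf2 and Apold1, at -0.281, -0.349 and -0.418 with log2 TPM; Dusp7, at -0.028 without SIR female 11 and -0.022 without control female 20; and Klf2, at -0.059 without control female 20. The cause was not tested. Leaving out SIR female 5 or the libraries under 16 M counts was not run for the sides, which do not hold them. No paired analysis was possible because no replicate number occurs in more than 1 group.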
